A study of Mus musculus with 4 samples.

Results

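The genes described here are 10 genes of the transforming growth factor beta (TGF-β) and bone morphogenetic protein (BMP) pathways in cultured group 2 innate lymphoid cells (ILC2s). They are the ligand genes Bmp7, Bmp2 and Tgfb1, the receptor genes Tgfbr1, Tgfbr2, Bmpr1a, Bmpr2 and Acvr1, and the SMAD genes Smad3 and Smad7. They were chosen by name, with earlier results of these data known but with no measured value in the rule, and matched by symbol to 10 of the 27179 rows of the count table. All 10 had a mean of at least 1 CPM, the count scaled to library size, over the 4 libraries and entered the test, as did 11184 genes in all. ILC2s were sorted from the large intestine of wild-type C57BL/6 mice as CD45.2+ lineage-negative cells bearing CD127 and KLRG1, and were kept for 5 days with the cytokines IL-33, IL-25, IL-7 and IL-2, each at 10 ng/mL, before treatment. The study's methods name both sexes in some places and males alone for C57BL/6J mice in another, and give the age as 6 to 8 weeks or as 6 to 14 weeks. One group of 2 libraries then received vehicle, and the other group of 2 libraries received deoxycholic acid (DCA), a secondary bile acid that gut bacteria make from a primary bile acid of the liver. The dose was 100 μM, and the exposure is given as 24 hours in the methods and as 16 hours in the design text. Both groups carried the same genotype and cytokines. Because the labels do not say whether the libraries came from separate mice or cultures, a p-value here measures only the spread between these samples, which may be technical.

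TGF-β and BMP ligands are secreted dimers that bring together type I and type II receptor kinases on the cell surface. The activated type I receptor phosphorylates receptor SMADs, Smad2 and Smad3 for TGF-β and Smad1, Smad5 and Smad9 for BMPs, which enter the nucleus with Smad4, while Smad6 and Smad7 are induced as inhibitors of the same receptors. TGF-β is abundant in the intestine, where it is known for restraining inflammation, and TGF-β signalling is known to take part in the development of ILC2s from their precursors. The comparison of DCA with vehicle asks which transcripts of the pathway differed in cells that met the bile acid.

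The libraries held 26564059 to 35838342 counts, apart from DCA replicate 2, which held 244165712, or 7.61 times the median of the others. A count of 0 therefore allowed a level of up to 0.0125 CPM in DCA replicate 2 and of up to 0.0819 to 0.114 CPM in the other libraries, taking 3 counts as the limit and covering counting error only. All 10 ILC2 markers, Gata3, Il1rl1, Klrg1 and Il7r among them, had counts in every library, with summed levels of 11572 and 12995 CPM in vehicle cells, against 13409 and 15740 CPM after DCA. Il5 made up most of this sum. The sum of the other 9 markers, taken apart after their values were seen, ran the opposite way. It was 3866 and 4149 CPM for vehicle libraries and 3382 and 3457 CPM for DCA libraries. Of these 9, Klrg1, Il1rl1 and Areg were lower in both DCA libraries, beside 14.5% of all genes tested. Il7r was higher in both, beside 18.8%, and the others overlapped. Of the markers of the sort and of the IL-33 receptor, Klrg1 and Il1rl1 were lower in both DCA libraries than in either vehicle library. Klrg1 had a log2 fold change of -0.73 (edgeR unadjusted p = 0.0156 and adjusted p = 0.998, DESeq2 adjusted p = 0.0444). At an adjusted p under 0.05, DESeq2 called 1.17% of all genes and edgeR called 0. Il1rl1 had a log2 fold change of -0.59 (edgeR unadjusted p = 0.0235 and adjusted p = 0.998, DESeq2 adjusted p = 0.0689). Il7r, the gene of the sort marker CD127, was higher in both DCA libraries, at 582 and 462 CPM against 373 and 350 CPM with vehicle. Its log2 fold change was 0.53 (edgeR unadjusted p = 0.0515 and adjusted p = 0.998, DESeq2 adjusted p = 0.534). Ptprc, the gene of CD45, overlapped between treatments (log2 fold change -0.025). The part of these markers in the values of the 10 genes was not tested. Markers of other cells were low. The 5 T cell markers summed to 19.9 and 33.5 CPM in vehicle cells, against 15.5 and 27.0 CPM after DCA, with 3 of 5 detected and Cd4 and Cd8a at 0 in every library. The 5 macrophage and monocyte markers, of which Cd68 gave most of the signal and Csf1r and Fcgr1 were at 0, summed to 23.9 and 24.4 CPM in vehicle cells, against 7.30 and 10.2 CPM after DCA. The summed levels of 6 epithelial markers were 7.73 to 13.5 CPM, those of 3 endothelial markers 3.71 to 11.5 CPM, those of 6 mast cell and basophil markers 0.379 to 4.70 CPM and those of 7 stromal markers 0.0309 to 1.45 CPM. Krt20, Kdr, Mcpt1, Mcpt2, Fcer1a, Col3a1, Dcn, Lum and the 4 ILC3 markers were at 0 in every library. The lower macrophage sum with DCA rested almost wholly on Cd68, at 24.2 and 23.9 CPM in vehicle cells, against 7.30 and 10.2 CPM after DCA. Adgre1 had 8 and 0 counts in vehicle cells, against 0 and 10 after DCA, and Lyz2 had 2 counts, in DCA replicate 2 only. Of the 10 pathway genes, 7 were also lower with DCA, and the part of Cd68 in their values was not tested.

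Bmp7, which encodes a BMP ligand that binds Acvr1 and Bmpr2 among other receptors, had the highest level of the 10 genes per length of exon. The gene lies on the minus strand at chr2:172868012-172940321 of GRCm38. Its level was 63.8 and 56.2 CPM in vehicle replicates 1 and 2, whereas DCA replicates 1 and 2 stood at 53.7 and 47.5 CPM. Both DCA libraries lay below both vehicle libraries, but the distance from the lower vehicle library to the higher DCA library was small. The means were 60.0 ± 5.37 CPM (SD, n = 2) with vehicle and 50.6 ± 4.4 CPM (SD, n = 2) with DCA. The log2 fold change was -0.24 with a standard error of 0.13, and did not pass edgeR's quasi-likelihood test (unadjusted p = 0.456, adjusted p = 0.998). Here and below, standard errors are of the difference of the treatment means on the log2(CPM + 1) scale, not of edgeR's fitted value. The libraries of a treatment were close for Bmp7, differing by 0.18 with vehicle and by 0.17 with DCA on the log2(CPM + 1) scale. In bulk libraries such as these, fewer cells of a type and less RNA per cell cannot be told apart.

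Bmp2, the gene of a BMP ligand that binds Bmpr1a with high affinity, lies on the plus strand at chr2:133552159-133562896. It was at 12.1 and 2.10 CPM in vehicle replicates 1 and 2, from 445 and 55 counts, whereas DCA replicates 1 and 2 stood at 8.69 and 3.92 CPM, from 281 and 941 counts. Replicate 1 was the higher library in both treatments, and the vehicle values enclosed the DCA values. Its log2 fold change was -0.18 (edgeR, unadjusted p = 0.885, adjusted p = 0.998). The difference of the treatment means on the log2(CPM + 1) scale was 0.11, of the other sign, with a standard error of 1.15. The sign of the fitted value rested on single libraries. It was 1.56 when vehicle replicate 1 was left out, 0.29 when DCA replicate 2 was left out and -0.95 when vehicle replicate 2 was left out.

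Tgfb1, which encodes the TGF-β isoform made by most leukocytes, lies on the plus strand at chr7:25687002-25705077. Its level was 7.48 and 14.5 CPM in vehicle replicates 1 and 2, whereas DCA replicates 1 and 2 stood at 9.65 and 15.1 CPM. Here replicate 2 was the higher library in both treatments, and the groups overlapped. On the log2 scale the fitted change was 0.17 with a standard error of 0.53 (edgeR, unadjusted p = 0.821, adjusted p = 0.998), and it turned to -0.25 without vehicle replicate 1 and to -0.19 without DCA replicate 2. Per length of exon, Bmp7 exceeded Tgfb1 by 10.7 and 4.85 times in the vehicle libraries and by 6.99 and 3.95 times in the DCA libraries. Bmp7 also exceeded Bmp2 in every library, by 4.65 and 23.7 times with vehicle and by 5.47 and 10.7 times with DCA.

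**Figure D1:**
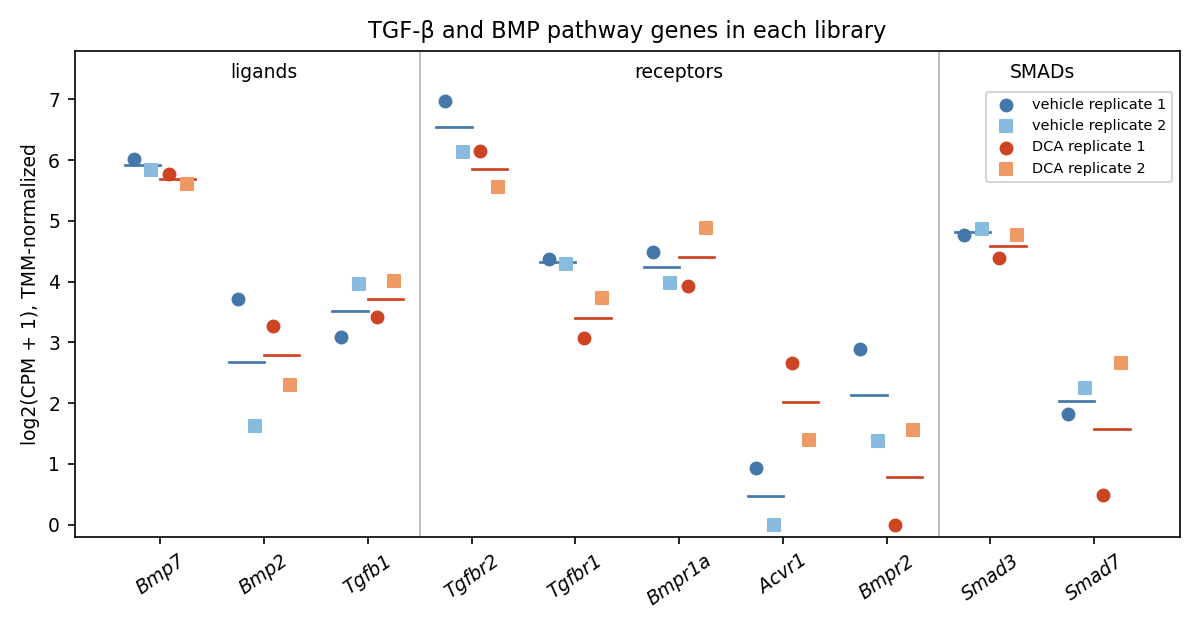
Level of each of the 10 genes in each library as log2(CPM + 1), with ligands, receptors and SMADs in separate sections from left to right and short lines at the mean of each treatment (n = 2). Tgfbr1 has its 2 DCA points (7.42 and 12.2 CPM) below its 2 vehicle points (19.6 and 18.6 CPM), whereas the points of Bmp2, Tgfb1, Tgfbr2, Bmpr1a, Bmpr2 and Smad7 are interleaved.

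The receptor for TGF-β is a complex of Tgfbr2, the type II kinase that binds the ligand, and Tgfbr1, the type I kinase that it activates. Of the 10 genes, Tgfbr1 had the lowest DCA level relative to vehicle among those with counts in every library. Its promoter and that of Tgfbr2 are shown because these receptors had the smallest unadjusted p-values of the 10 genes. The windows are the 250 bases before the RefSeq transcription start on GRCm38.p6, read 5′ to 3′ on the strand of the gene. Capitals mark CAGAC, the letters of the SMAD-binding element searched as its 5-base core, or GGCGCC, the letters of a GC-rich element that SMADs of the BMP branch are known to bind.
Tgfbr1 promoter, plus strand, chr4:47352972-47353221: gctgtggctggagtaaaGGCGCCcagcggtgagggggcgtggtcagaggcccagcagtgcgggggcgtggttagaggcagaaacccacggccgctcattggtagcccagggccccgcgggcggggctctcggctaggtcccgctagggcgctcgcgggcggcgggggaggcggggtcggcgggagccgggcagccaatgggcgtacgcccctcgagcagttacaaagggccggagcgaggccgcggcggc
Tgfbr2 promoter, minus strand, chr9:116175364-116175613: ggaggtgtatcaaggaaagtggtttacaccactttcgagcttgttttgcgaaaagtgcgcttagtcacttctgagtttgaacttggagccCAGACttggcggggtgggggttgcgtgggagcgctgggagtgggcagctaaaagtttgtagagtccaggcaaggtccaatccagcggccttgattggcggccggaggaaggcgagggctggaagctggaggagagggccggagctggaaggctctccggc
Both strands were searched, neither motif contains the other, and no pair of matches overlapped. Of the 10 genes, 7 had a window in the RefSeq table (Bmp2, Bmp7 and Smad7 had none), and Tgfbr1 had a second start, which gave 8 windows. CAGAC was found in 2 of these 8, the Tgfbr2 window and the second Tgfbr1 window, whereas 42.2% of all 32851 windows held it. GGCGCC was found in 3 of 8, those of Bmpr2, Bmpr1a and the first Tgfbr1 start, against 9.59% of all windows. The palindrome GTCTAGAC was found in 0 of 8 and in 0.167% of all windows. The share of G and C in the 8 windows was 52.8% to 85.6%, above the 52.4% median of all windows in each. The highest share was that of Acvr1, whose window was not matched to a GENCODE transcript of the gene. Without that window the highest was 78.8%, for Bmpr1a. A match of letters is a description of the window only.

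Tgfbr1 lies on the plus strand at chr4:47353222-47414926. Its level was 19.6 and 18.6 CPM in vehicle replicates 1 and 2, from 718 and 488 counts, whereas DCA replicates 1 and 2 stood at 7.42 and 12.2 CPM, from 240 and 2938 counts. The vehicle libraries were nearly equal and both exceeded the DCA libraries. The means were 19.1 ± 0.702 CPM (SD, n = 2) with vehicle and 9.83 ± 3.41 CPM (SD, n = 2) with DCA. DCA against vehicle gave a log2 fold change of -0.96 with a standard error of 0.33, which did not pass the test (edgeR, unadjusted p = 0.167, adjusted p = 0.998). It kept its sign when each library was left out, between -1.36 and -0.64. The difference of the treatment means on the log2(CPM + 1) scale, -0.93, was larger than the difference between the DCA libraries, 0.65.

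Tgfbr2 lies on the minus strand at chr9:116087695-116175363 and had the highest level of the 5 receptor genes per length. It was at 125 and 69.1 CPM in vehicle replicates 1 and 2, whereas DCA replicates 1 and 2 stood at 70.1 and 46.3 CPM. The groups overlapped, since DCA replicate 1 was slightly above vehicle replicate 2, and replicate 1 was the higher library in both treatments. The means were 96.9 ± 39.3 CPM (SD, n = 2) and 58.2 ± 16.8 CPM (SD, n = 2). The log2 fold change was -0.74 with a standard error of 0.51, and its unadjusted p of 0.111 was the smallest of the 10 genes (edgeR, adjusted p = 0.998). The adjusted p of DESeq2 was 0.907. The fitted value depended on vehicle replicate 1, without which it was -0.27, and it was -1.10 without vehicle replicate 2, with an unadjusted p of 0.0165. Tgfbr2 exceeded Tgfbr1 per length by 5.08 and 2.97 times in the vehicle libraries and by 7.54 and 3.01 times in the DCA libraries, so these ratios overlapped between treatments.

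Among the BMP receptors, Bmpr1a, a type I kinase for BMP2 and BMP4, was detected in every library, whereas Acvr1, a type I kinase for BMP7 and other BMPs, and Bmpr2, the type II kinase of the BMP receptor complex, each had a library without a count. Bmpr1a lies on the minus strand at chr14:34411061-34503336 and shares 290 bases of exon, 4.57% of its exon length, with the antisense gene Gm17110. In these counts, reads of either gene in that stretch cannot be told apart. Its level was 21.5 and 14.7 CPM in vehicle replicates 1 and 2, whereas DCA replicates 1 and 2 stood at 14.2 and 28.4 CPM. The DCA libraries were both the lowest and the highest of the 4. Its log2 fold change was 0.24 with a standard error of 0.54 (edgeR, unadjusted p = 0.698, adjusted p = 0.998), and it was -0.35 without DCA replicate 2.

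Bmpr2, on the plus strand at chr1:59764279-59878081, had 235 and 42 counts in the vehicle libraries and 0 and 463 counts in the DCA libraries. These counts correspond to 6.41 and 1.60 CPM in vehicle cells, against 0 and 1.93 CPM after DCA. At the level of DCA replicate 2, DCA replicate 1 would hold 62.4 counts. DCA replicate 2 lay between the vehicle libraries. On the log2 scale the fitted change was -2.04 (edgeR, unadjusted p = 0.438, adjusted p = 0.998). The difference of the treatment means on the log2(CPM + 1) scale, also the value of limma, was -1.36 with a standard error of 1.08. The value fitted by edgeR was -0.74 without vehicle replicate 1, -1.04 without DCA replicate 1 and -4.15 with the replicate number as a block.

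Acvr1, on the minus strand at chr2:58446438-58566828, had 33 and 0 counts in the vehicle libraries and 172 and 389 counts in the DCA libraries. The levels were 0.900 and 0 CPM in vehicle cells, against 5.32 and 1.62 CPM after DCA, so the DCA libraries both exceeded the vehicle libraries. At the level of vehicle replicate 1, vehicle replicate 2 would hold 23.6 counts. The means were 0.450 ± 0.637 CPM (SD, n = 2) and 3.47 ± 2.61 CPM (SD, n = 2). DCA against vehicle gave a log2 fold change of 2.93 (edgeR, unadjusted p = 0.288, adjusted p = 0.998). The difference of the treatment means on the log2(CPM + 1) scale, also the value of limma, was 1.56 with a standard error of 0.79. Acvr1 was the 1 gene of the 10 whose DCA libraries were both higher. It reached the mean of 1 CPM only through the DCA libraries, and did not reach it when DCA replicate 1 was left out.

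Smad3, the receptor SMAD that carries the TGF-β signal to DNA, lies on the minus strand at chr9:63646766-63757994. Its level was 26.3 and 28.0 CPM in vehicle replicates 1 and 2, whereas DCA replicates 1 and 2 stood at 19.9 and 26.2 CPM. Vehicle replicate 1 (26.25 CPM) and DCA replicate 2 (26.24 CPM) were nearly equal, so the groups were apart by a very narrow margin. Most of the difference of the means came from DCA replicate 1. The log2 fold change was -0.23 with a standard error of 0.19 (edgeR, unadjusted p = 0.617, adjusted p = 0.998), and it was -0.049 without DCA replicate 1.

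Smad7, an inhibitory SMAD that binds the type I receptors and is itself a target of the pathway, lies on the plus strand at chr18:75367365-75395935. It had 93 and 99 counts in the vehicle libraries and 13 and 1269 counts in the DCA libraries, which are 2.54 and 3.77 CPM in vehicle cells, against 0.402 and 5.29 CPM after DCA. The DCA libraries held the lowest and the highest level, and differed by 2.17 on the log2(CPM + 1) scale, the widest difference between DCA libraries among the 10 genes. Its log2 fold change was -0.15 (edgeR, unadjusted p = 0.936, adjusted p = 0.998). The difference of the treatment means on the log2(CPM + 1) scale was -0.47 with a standard error of 1.10. Without DCA replicate 1 the fitted value was 0.74, and without DCA replicate 2 it was -2.96. The ratio of Smad3 to Smad7 per length was 8.44 and 6.06 in the vehicle libraries and 40.5 and 4.05 in the DCA libraries.

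The order of the genes by level was set on CPM per kilobase of exon, averaged over the 4 libraries. Bmp7 stood first at 13.8 ± 1.67 CPM per kb (SD, n = 4), followed by Tgfbr2 at 9.47 ± 4.07 and Smad3 at 4.53 ± 0.640. Bmpr1a at 3.10 ± 1.05, Tgfb1 at 2.32 ± 0.737, Tgfbr1 at 2.21 ± 0.874 and Bmp2 at 1.89 ± 1.28 CPM per kb (SD, n = 4) formed the middle of the order. Smad7 at 0.664 ± 0.457, Acvr1 at 0.406 ± 0.484 and Bmpr2 at 0.138 ± 0.153 CPM per kb (SD, n = 4) were last. Tgfbr2 and Smad3 were the only neighbours in this order whose library values did not overlap, with a lowest value of 5.65 for Tgfbr2 and a highest value of 5.05 CPM per kb for Smad3. With the length of the longest transcript in place of all exons, Tgfb1 stood at 4.54 CPM per kb and passed Bmpr1a at 3.31. The other receptor SMAD of the TGF-β branch, Smad2, exceeded Smad3 per length by 2.43 and 1.27 times with vehicle and by 2.09 and 1.74 times with DCA.

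**Figure D2:**
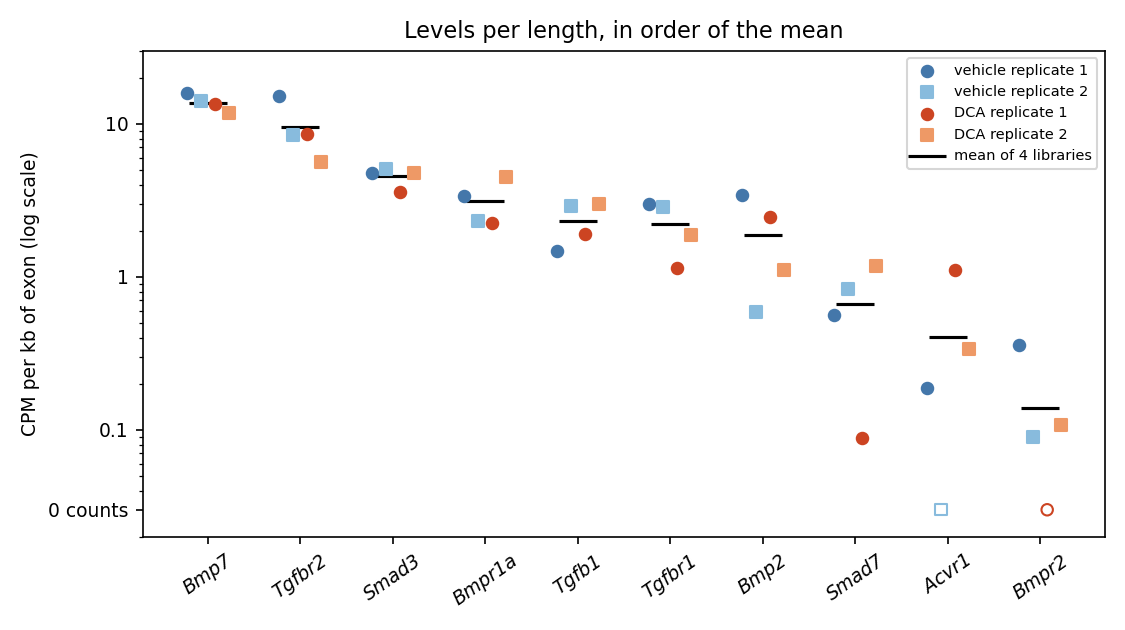
CPM per kilobase of exon on a log scale for each gene and library, with genes ordered by the mean of the 4 libraries (black lines) and open symbols for libraries with 0 counts. Bmp7 lies between 11.8 and 15.9 CPM per kb, and Acvr1 and Bmpr2 at the right each have 1 library at 0.

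Over the 10 genes, 3 had a positive and 7 a negative log2 fold change, with a median of -0.20 beside a median of 0.012 over all genes tested. None passed an adjusted p of 0.05 in edgeR's quasi-likelihood test, and that test called 0 of all 11184 genes, which is 0%. At an unadjusted p under 0.05 the count was 0 of 10, beside 477 or 4.27% of all genes tested. DESeq2 also called 0 of the 10 at an adjusted p of 0.05, beside 128 of 10967 genes or 1.17%, and limma called 0 of the 10 and 0 genes in all. The libraries of a treatment did not overlap for 3 genes that were lower with DCA, Bmp7, Tgfbr1 and Smad3, beside 14.5% of all genes in that direction. They did not overlap for 1 gene that was higher with DCA, Acvr1, beside 18.8% of all genes, and Acvr1 entered the test only through its DCA libraries. An exact two-sided permutation test over 2 against 2 libraries cannot give a p below 0.333, which is the value it gave for each of these 4 genes, and for the other 6 genes it gave 0.667 or 1. For 7 of the 10 genes, the larger of the differences within a treatment exceeded the difference between the treatment means on the log2(CPM + 1) scale, beside 78.3% of all genes. Bmp7, Tgfbr1 and Acvr1 were the exceptions.

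The other genes of the pathway were taken from 7 lists arranged by role, which with the 10 genes hold 109 genes. Of the 109, 88 had a count in some library, 21 were at 0 in every library and 60 were tested. Of the 60, 21 had a positive and 39 a negative log2 fold change, with a median of -0.24, and without the 10 genes the counts were 18 and 32 with a median of -0.25. At an unadjusted p under 0.05, 1 was lower, beside 1.70% of all genes tested in that direction, and 0 were higher, beside 2.57%. None passed an adjusted p of 0.05 with edgeR or DESeq2. DESeq2 gave no adjusted p for Tgfb3 (DESeq2 unadjusted p = 0.00821) or Tgfbr3 (DESeq2 unadjusted p = 0.336), so these were not judged by it at that threshold. Libraries did not overlap for 10 of the 60 genes in the higher direction, beside 18.8% of all genes tested, and for 11 of the 60 in the lower direction, beside 14.5%. Of those higher, Acvr1, Acvr1b, Tgfbr3, Rgmb and Itgb8 reached the mean of 1 CPM only through the DCA libraries. Of those lower, Tgfb3 reached it only through the vehicle libraries. Entry into the test thus favoured these directions, and the counts are a description only.

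The 1 gene with an unadjusted p under 0.05 was Tgfb3, which encodes another TGF-β isoform. It had 60 and 62 counts in the vehicle libraries and 0 and 4 counts in the DCA libraries, or 1.64 and 2.36 CPM against 0 and 0.0167 CPM. Both DCA libraries were thus close to 0. The fitted log2 fold change was -7.34 (edgeR, unadjusted p = 0.0456, adjusted p = 0.998), a size that rests on the few DCA counts, and limma on log2(CPM + 1) gave -1.56. Tgfb3 had a mean of 1.004 CPM over the 4 libraries, just above the limit for the test, and reached it only through the vehicle libraries. Its unadjusted p was 0.0637 with no filter and 0.0874 with DCA replicate 2 thinned (edgeR), and 0.118 with limma. With edgeR and the replicate block it was 0.137. It stayed under 0.05 with the other scalings, DESeq2 and filterByExpr. Of the 6 ligand genes tested, Tgfb3 and Bmp7 were those whose libraries did not overlap. Of the 26 ligand genes listed, 6 were tested and 10 were at 0 in every library, Bmp4 and Bmp6 among the latter, and the median log2 fold change of the 6 was -0.30.

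Of the 17 receptor and coreceptor genes, 11 were tested, 5 with a positive and 6 with a negative log2 fold change. Libraries did not overlap for 6 of the 11, named here after their values were seen, 4 of them higher (beside 18.8% of all genes tested) and 2 lower (beside 14.5%). Besides Acvr1, those higher with DCA were Acvr1b, an activin type I receptor, with 0 and 33 counts against 69 and 488, and the coreceptor genes Tgfbr3, with 0 and 13 counts against 87 and 235, and Rgmb, with 4 and 0 counts against 101 and 735. These 4 genes each had a vehicle library without a count. Their vehicle means were 0.450 CPM for Acvr1, 0.629 for Acvr1b, 0.248 for Tgfbr3 and 0.0546 for Rgmb. Each thus reached the mean of 1 CPM needed for the test only through the DCA libraries. Entry into the test therefore depended on a high DCA level, and their number beside 18.8% is a description only. Those lower with DCA were Tgfbr1 and Acvr2a, an activin type II receptor, which had 234 and 180 counts against 95 and 1114. Eng, the gene of the coreceptor endoglin, had counts in replicate 2 of each treatment only, 367 with vehicle and 556 with DCA.

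Of the 8 SMAD genes, 6 were tested, 1 with a positive and 5 with a negative log2 fold change. Smad2 was at 101 and 56.4 CPM in vehicle cells, against 66.0 and 72.5 CPM after DCA (log2 fold change -0.19, edgeR unadjusted p = 0.624). Smad5, a receptor SMAD of the BMP branch, was at 38.8 and 15.6 CPM in vehicle cells, against 11.5 and 15.1 CPM after DCA. Its vehicle replicate 1 stood above the other libraries, and the log2 fold change of -1.03 (edgeR, unadjusted p = 0.142) was -0.26 without that library. Smad1, the 1 SMAD gene with a positive fold change, was at 5.62 and 5.56 CPM in vehicle cells, against 9.71 and 7.58 CPM after DCA, which gave a log2 change of 0.63. Smad4, the shared partner, was at 5.32 and 35.4 CPM in vehicle cells, against 2.2 and 12.1 CPM after DCA, with replicate 2 the higher library in both treatments. Smad9 was at 0 in every library and Smad6 had 4 counts in all. Smad1, Smad4, Smad6 and Smad9 were named after their values were seen.

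Extracellular antagonists, which bind the ligands and keep them from their receptors, were mostly absent from the counts. Of 11 genes listed, 7 were at 0 in every library, including Nog, Fst and Grem1, and 1 was tested. That gene, Twsg1, which binds BMPs and can act for or against them, was at 61.5 and 27.5 CPM in vehicle cells, against 32.6 and 25.8 CPM after DCA (log2 fold change -0.61, edgeR unadjusted p = 0.259), with vehicle replicate 1 above the rest. Under the limit of 1 CPM, Nbl1 had 46 and 1 counts in vehicle cells, against 0 and 476 after DCA, and Fstl3 had 0 and 0 counts in vehicle cells, against 25 and 148 after DCA.

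TGF-β is secreted in a latent complex and must be released before it can bind. Of 11 genes for latency and activation, 6 were tested, 3 in each direction, with a median log2 fold change of 0.0020. Nrros, which tethers latent TGF-β to the surface of myeloid cells, was at 301 and 200 CPM in vehicle cells, against 369 and 185 CPM after DCA (log2 fold change 0.15, edgeR unadjusted p = 0.715). Furin, the protease that cleaves the TGF-β precursor, was at 332 and 158 CPM in vehicle cells, against 256 and 188 CPM after DCA (log2 fold change -0.14, edgeR unadjusted p = 0.724). In both genes replicate 1 was the higher library of each treatment. Itgav, the αv integrin subunit of TGF-β-activating integrins, was at 9.0 and 25.4 CPM in vehicle cells, against 27.1 and 29.7 CPM after DCA (log2 fold change 0.73, edgeR unadjusted p = 0.279). Its DCA libraries lay above the vehicle libraries, narrowly above vehicle replicate 2, and its log2 fold change was 0.14 with vehicle replicate 1 left out. Lrrc32, which displays latent TGF-β on regulatory T cells, was at 0 in every library.

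Of 20 intracellular regulators, 19 were tested, 6 with a positive and 13 with a negative log2 fold change and a median of -0.27. Fkbp1a, which encodes FKBP12, a protein that holds type I receptors inactive, was at 403 and 471 CPM in vehicle cells, against 542 and 559 CPM after DCA, and both DCA libraries were higher (log2 fold change 0.33, edgeR unadjusted p = 0.157). Strap, which encodes a receptor-associated protein that works with Smad7, was at 170 and 216 CPM in vehicle cells, against 165 and 155 CPM after DCA (log2 fold change -0.27, edgeR unadjusted p = 0.304). Usp15, a deubiquitinase that acts on the type I receptor and on SMADs, was at 184 and 111 CPM in vehicle cells, against 111 and 97.6 CPM after DCA (log2 fold change -0.51, edgeR unadjusted p = 0.158). Usp15 was at -0.12 on the log2 scale without vehicle replicate 1 and at -0.82 without vehicle replicate 2. For Strap and Usp15 both DCA libraries were lower, by a narrow margin from the nearest vehicle library.

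Of 20 genes known as targets of the pathway, 14 were tested, 6 with a positive and 8 with a negative log2 fold change and a median of -0.029. Id2, a BMP target that ILC2s also require for their identity, was at 2957 and 2807 CPM in vehicle cells, against 2928 and 3111 CPM after DCA, and varied little between the libraries (log2 fold change 0.068, edgeR unadjusted p = 0.711). Itgb7, an integrin gene of gut-homing lymphocytes, was at 967 and 455 CPM in vehicle cells, against 728 and 406 CPM after DCA (log2 fold change -0.33, edgeR unadjusted p = 0.476). Junb was at 472 and 351 CPM in vehicle cells, against 376 and 318 CPM after DCA (log2 fold change -0.25, edgeR unadjusted p = 0.348). For both, replicate 1 was the higher library of each treatment and the groups overlapped. Id3, named after its values were seen, had 491 and 0 counts in vehicle cells, against 290 and 1055 after DCA, where 351.5 counts would be present in vehicle replicate 2 at the level of vehicle replicate 1.

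**Figure D3:**
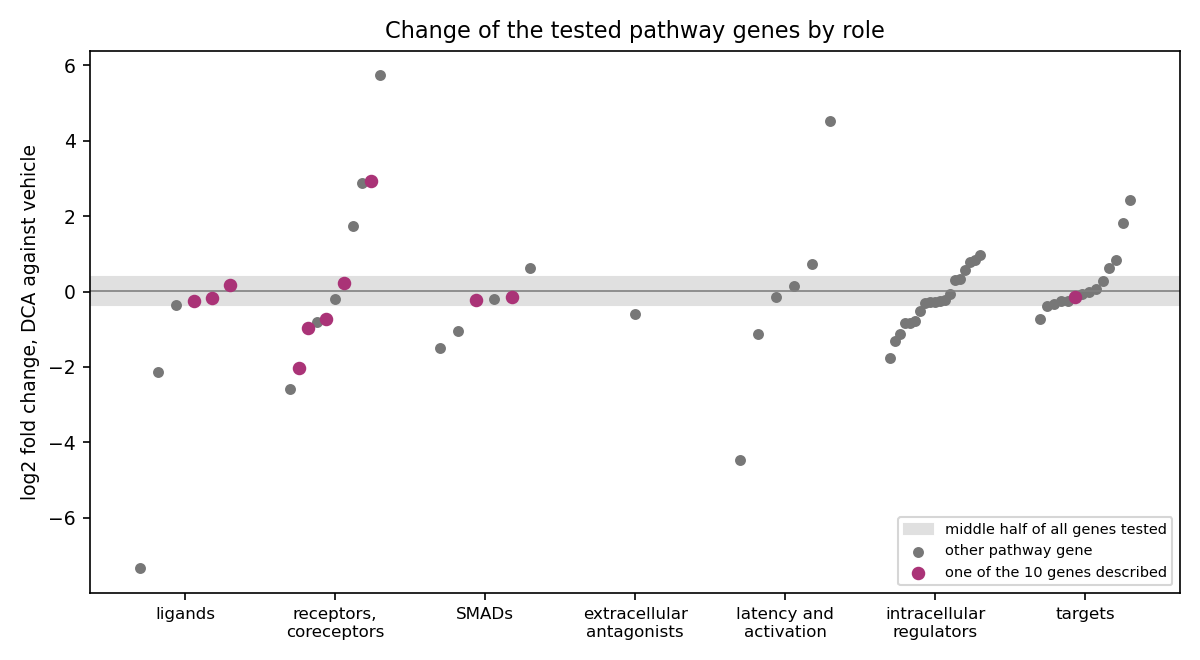
Log2 fold change of DCA against vehicle for each tested gene of the 7 role lists, with the 10 genes described in colour, other pathway genes in grey and the interquartile range and median of all genes tested as a band and a line. The ligand farthest below is Tgfb3 (-7.34), the receptor or coreceptor gene farthest above is Rgmb (5.74), and no point passed an adjusted p of 0.05.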

How the data were processed

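RNA-seq libraries of sorted, cultured ILC2s, 2 with vehicle and 2 with DCA, were grouped by their labels. The table deposited by the authors is named for FPKM but holds unnormalized counts, whole numbers for each gene. Per the labels and the study's methods, reads from SMART-Seq and Nextera XT libraries were trimmed with Cutadapt 1.9 and aligned to mm10 with HISAT2 2.2.1. The counting tool, its annotation, its strand setting and its handling of read pairs are not given in the sources used here. From the authors' counts, edgeR 4.0.16 in R 4.3.3 gave TMM-normalized CPM and a two-sided quasi-likelihood test with Benjamini-Hochberg adjustment over 11184 genes, those whose mean over the 4 libraries reached 1 CPM. Standard errors were computed from log2(CPM + 1) of the libraries of each treatment. They belong to the difference of the treatment means on that scale, not to edgeR's log2 fold change. CPM per kb used the union of GENCODE M21 exons, and positions and promoters came from RefSeq on GRCm38.p6. DESeq2 1.42.0, limma 3.58.1 (pseudocount 1), other scalings and filters, a replicate block, thinning of DCA replicate 2 to 32102232 counts and leaving out each library were alternatives. The test was checked on simulated counts.

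Members and lists were chosen with earlier results of these data known. Named were the 10 genes, and of each role list the 3 genes with the highest mean CPM and those with an unadjusted p under 0.05 and no overlap between treatments. Other names were added after their values were seen.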

Additional observations from a re-analysis of the deposited data

How the results depend on the processing

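With 2 libraries per treatment, the libraries set most values. Of 126 values of the 10 genes under the alternatives, 116 kept their sign, 10 changed it, and none gained or lost an adjusted call. In the alternatives that kept all 4 libraries, no adjusted p of the 10 was below 0.907. Across all genes, the count past an adjusted p of 0.05 was 0, but 128 with DESeq2 and 36 with no filter, and 0 to 20 when 1 library was left out (20 without vehicle replicate 1). The number of the 10 genes with an unadjusted p under 0.05 was 0, but 1 (Tgfbr2) with no filter, and 0 to 1 when 1 library was left out (Acvr1 without vehicle replicate 1, Tgfbr2 without vehicle replicate 2). For the pathway genes this number was 1, but 3 with DESeq2, 0 with limma, 2 with no filter, 0 with a mean of at least 5 CPM, 3 with filterByExpr, 0 with DCA replicate 2 thinned, and 0 to 10 when 1 library was left out. A mean of at least 5 CPM left out Acvr1, Bmpr2 and Smad7. Libraries did not overlap for 4 of the 10 genes under each of 3 scalings, and for 3 with DCA replicate 2 thinned.

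The replicate numbers were not shown to pair the libraries, since the deviations of same-numbered libraries correlated at 0.0197. With the replicate block, 0 genes passed the adjusted threshold, 1 of the 10 genes had an unadjusted p under 0.05 (Tgfbr2, then also the 1 such gene of the pathway lists), and Bmp2 changed sign to 0.21.

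Signs also changed as follows, on the log2 scale. With limma, Bmp2 was 0.11. When 1 library at a time was left out, Bmp2 ranged from -0.95 to 1.56 (0.29 without DCA replicate 2), Tgfb1 from -0.25 to 0.73 (lowest without vehicle replicate 1, and -0.19 without DCA replicate 2), Bmpr1a from -0.35 without DCA replicate 2 to 0.65 (-0.0090 without vehicle replicate 2) and Smad7 from -2.96 to 0.74 without DCA replicate 1 (0.17 without vehicle replicate 2). Likewise Smad2 ranged from -0.55 to 0.27, Twsg1 from -1.08 to 0.064, Furin from -0.58 to 0.47 and Itgb7 from -0.80 to 0.30, each highest and above 0 without vehicle replicate 1, and Nrros from -0.43 without DCA replicate 1 to 0.56. Without DCA replicate 2, Furin was 0.064 and Itgb7 0.034, and without vehicle replicate 2, Nrros was -0.12. Without vehicle replicate 1, Bmp2 was 1.56 and the median of the pathway genes 0.083. With their sign kept, Bmp7 ranged from -0.34 to -0.16, Junb from -0.45 to -0.041, Strap from -0.45 to -0.084 and Fkbp1a from 0.20 to 0.45. Acvr1 was 1.94 without vehicle replicate 2 and 4.73 with the replicate block. The leave-one-out fits gave Bmpr2 -9.99 and Acvr1 11.43 where a treatment was left at 0 counts, which are no bounds. Such a fit assumes that the lone library of a treatment varies like those of the other. The size of the Smad3 change depended on DCA replicate 1 (-0.049 without it), and the cause was not tested.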

Other observations

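Some other pathway genes are given here after their values were seen. Nedd4l, Ltbp1, Itgb8 and Itgae differed widely in level between the libraries. Nedd4l, the gene of a ubiquitin ligase for SMADs and TGF-β receptors, had 1122 and 8 counts in vehicle cells, against 754 and 7298 after DCA. Without vehicle replicate 1, Nedd4l had a log2 fold change of 6.43 and an adjusted p of 0.0448 (edgeR), and it was the 1 pathway gene to pass the adjusted threshold in any edgeR, DESeq2 or limma setting run. Ltbp1, which binds latent TGF-β in the matrix, had 667 and 5 counts in vehicle cells, against 16 and 80 after DCA (log2 fold change -4.48, edgeR unadjusted p = 0.0763). Itgb8, an integrin subunit that activates TGF-β, had 10 and 0 counts in vehicle cells, against 172 and 282 after DCA (log2 fold change 4.53, edgeR unadjusted p = 0.138). With a vehicle mean of 0.136 CPM, Itgb8 entered the test only through the DCA libraries. Itgae, a target of TGF-β in intestinal lymphocytes, was at 1.64 and 3.32 CPM in vehicle cells, against 17.4 and 0.213 CPM after DCA, so its DCA libraries held the highest and the lowest level. Pmepa1, a feedback inhibitor induced by TGF-β, was at 5.51 and 7.32 CPM in vehicle cells, against 12.4 and 10.5 CPM after DCA. Both DCA libraries lay above both vehicle libraries (log2 fold change 0.83, edgeR unadjusted p = 0.320). Klf10, on the same target list, went the other way, at 38.0 and 26.9 CPM in vehicle cells, against 17.5 and 21.9 CPM after DCA. Its log2 fold change was -0.72 (edgeR unadjusted p = 0.161). Of the 14 targets tested, 2 were higher without overlap (Pmepa1 and Cdkn1a), beside 18.8% of all genes tested. Another 2 were lower without overlap (Klf10 and Bhlhe40), beside 14.5%.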
